A study of Mus musculus with 4 samples.

Results

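Zcwpw1, Gnb3, Rdh12, Krt18, Syn3, Adgrl2, Meis1, Lipc and Fgl2 are 9 of the 32285 genes counted in mononuclear cells from the blood of mice of the strains BL/6 and SM/J. They were chosen by their measured UMI levels, as genes that led a group of B cells found almost only in SM/J mice at 20 months. Their height in those cells is the reason for the choice and is given here as a description. The 4 groups were BL/6 at 12 months, BL/6 at 20 months, SM/J at 12 months and SM/J at 20 months, with 1 matrix of single cells each. BL/6 and SM/J are inbred laboratory strains, and the labels give no treatment, no altered allele and no sex. Blood was drawn from the heart, mononuclear cells were taken over a density gradient, platelets were spun out and red cells were lysed. Each strain was run as 1 10x sample that held both of its ages, so a strain difference cannot be told apart from a difference between runs. Sample tags split each matrix into 3 aliquots, which may or may not come from different animals and are used here only to show spread, never as replicates. No test between groups was possible with 1 matrix a group.

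The 9 genes come from families that are known for work outside B cells. Zcwpw1 encodes a reader of histone methylation best known from meiosis in the testis, and Meis1 a homeobox transcription factor of blood stem cells and megakaryocytes. Gnb3 encodes a beta subunit of the G proteins that carry signals from surface receptors, known from cone photoreceptors and taste cells. Adgrl2, also called latrophilin 2, is an adhesion G protein-coupled receptor, and Syn3 is a synapsin, a protein of synaptic vesicles. Rdh12 is a retinol dehydrogenase of photoreceptors, and Lipc is hepatic lipase, which cleaves lipids of circulating lipoproteins. Krt18 is the acidic keratin of simple epithelia and pairs with Krt8. Fgl2 is a fibrinogen-like protein that T cells secrete and macrophages carry on their surface. B-1 cells, which several marker lists below touch on, are a self-renewing class of mouse B cells that makes natural antibodies from a restricted set of receptor genes.

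The genes lie apart from each other on mm10, the build in the submitters' processing notes, by the GENCODE vM21 annotation of GRCm38, which is the same assembly. Zcwpw1 (ENSMUSG00000037108) lies at chr5:137787798-137822621 on the plus strand and Fgl2 (ENSMUSG00000039899) at chr5:21372642-21378374 on the plus strand. Gnb3 (ENSMUSG00000023439) lies at chr6:124834240-124840275 on the minus strand, and Rdh12 (ENSMUSG00000021123) at chr12:79208914-79222665 on the plus strand. Krt18 (ENSMUSG00000023043) lies at chr15:102028180-102032027 on the plus strand. Syn3 (ENSMUSG00000059602) lies at chr10:86055125-86498896 and Adgrl2 (ENSMUSG00000028184) at chr3:148815583-148990555, both on the minus strand. Meis1 (ENSMUSG00000020160) lies at chr11:18879817-19018985 and Lipc (ENSMUSG00000032207) at chr9:70798128-70952226, both on the minus strand. Zcwpw1 overlaps Pilra, Syn3 overlaps Fbxo7 and Timp3, and Fgl2 overlaps Ccdc146, so reads could be assigned to either partner depending on how the counting used strand.

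Promoter sequence from RefSeq on GRCm38.p6 was found for 7 of the 9 genes, in 9 windows of 250 bases before a transcript start. Zcwpw1 has 2 such windows, of which the outer is shown. Sequence is given for 4 genes whose levels behave differently below: Zcwpw1 and Krt18, which were low in most other blood cells, and Meis1 and Fgl2, which were also seen in myeloid or NK cells. Each is written 5′ to 3′ on the gene's own strand and ends at or before the gene start given above, with motif matches on either strand in capitals. The windows are chr5:137787081-137787330 for Zcwpw1 (plus), chr15:102027966-102028179 for Krt18 (plus), chr11:19018986-19019219 for Meis1 (minus) and chr5:21372423-21372641 for Fgl2 (plus).
Zcwpw1: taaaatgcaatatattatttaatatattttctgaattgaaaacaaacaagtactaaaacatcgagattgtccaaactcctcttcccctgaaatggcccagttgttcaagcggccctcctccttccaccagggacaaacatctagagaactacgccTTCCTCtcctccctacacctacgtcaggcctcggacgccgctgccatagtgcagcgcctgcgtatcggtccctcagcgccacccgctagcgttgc
Krt18: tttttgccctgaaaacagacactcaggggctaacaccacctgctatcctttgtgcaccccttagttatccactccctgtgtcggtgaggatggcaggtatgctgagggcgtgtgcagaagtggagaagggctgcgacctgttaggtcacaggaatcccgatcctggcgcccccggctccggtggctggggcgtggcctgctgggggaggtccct
Meis1: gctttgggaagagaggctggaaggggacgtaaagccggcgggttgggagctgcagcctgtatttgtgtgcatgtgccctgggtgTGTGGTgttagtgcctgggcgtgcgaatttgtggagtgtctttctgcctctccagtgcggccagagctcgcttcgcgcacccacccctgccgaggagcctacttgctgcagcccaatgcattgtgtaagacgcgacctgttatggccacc
Fgl2: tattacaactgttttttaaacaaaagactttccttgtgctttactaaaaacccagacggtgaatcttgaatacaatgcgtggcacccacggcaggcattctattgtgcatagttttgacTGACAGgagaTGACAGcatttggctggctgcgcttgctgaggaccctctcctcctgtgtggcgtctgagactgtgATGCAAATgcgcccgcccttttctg
The motifs searched on both strands were MEIS (TGACAG), the octamer (ATGCAAAT), PU.1 (GAGGAA), the E-box of BHLHE40 and BHLHE41 (CACGTG), RUNX (TGTGGT), EBF1 (CCCNNGGG) and the TATA box (TATAAA). No matches overlap in the sequences shown. The Fgl2 window held the MEIS letters at 2 places and the octamer at 1, the Meis1 window held the RUNX letters, and the Zcwpw1 window held the PU.1 letters on the opposite strand. Of all 32851 promoter windows of this length, 15.9% held MEIS, 1.6% the octamer, 23.3% PU.1, 6.02% CACGTG, 14% RUNX, 11.8% EBF1 and 12.4% the TATA box. Among the windows not shown, PU.1 letters were in Rdh12 and Lipc, EBF1 letters in Lipc and TATA letters in Adgrl2. No motif was in all windows of the 9 genes. A match is a string of letters and was not tested as a binding site.

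Depth differed between the matrices and has to be read beside every share of cells. The matrices held 2580 to 3551 deposited cells and 14250603 to 30627357 unique molecular identifiers (UMIs, counted transcript molecules). After filters and doublet calls 2405 to 3400 cells a matrix were kept, 11591 in all, and the median kept cell had 4062 and 4917 UMIs in BL/6 and 4731 and 8837 in SM/J at 12 and 20 months. SM/J at 20 months was thus the deepest. Pairs of matrices shared 0 to 3 cell barcodes, and 20 cells of BL/6 and 28 of SM/J at 12 months had a leading tag that belongs to another age or strain. Kept cells fell into 25 clusters, built without the 9 genes and without immunoglobulin segments. The B cell-like cells numbered 2004, 952, 878 and 1539 in BL/6 at 12 and 20 months and SM/J at 12 and 20 months.

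Cells of cluster 24 carried all 9 genes and were a B cell-like group of SM/J at 20 months. The cluster held 0 BL/6 cells, 18 SM/J cells at 12 months and 848 at 20 months, which is 55.1% of the B cell-like cells of that matrix. Of the B cell markers, the antigen receptor genes Cd79a and Cd79b stood at 2032 and 1663 CPM (counts per 1000000 UMIs of the group) at 20 months, each in 99.8% of its cells. Ms4a1 was at 747 CPM in 98% of cells, and the B lineage transcription factors Ebf1 and Pax5 were at 807 and 148 CPM. Of the marker lists of other lineages, the T cell list summed to 5.30 CPM, the NK cell list to 6.48, the neutrophil list to 1.27, with Retnlg and Mmp8 at 0, and the basophil list to 1.82, with Mcpt8, Cpa3 and Gata2 at 0. The platelet list summed to 18.5 CPM, the classical monocyte list to 23.6, with Vcan at 0, the body cavity macrophage list to 52.0 and the nonclassical monocyte list to 72.6. Higher were the erythroid list at 91.5 CPM, the conventional dendritic cell list at 93.2, with Clec9a at 0, the plasmacytoid dendritic cell list at 931 and the plasma cell list at 1802. In cluster 5 of the same matrix those 4 lists summed to 78.9, 17.6, 666 and 745 CPM, and their part in the results was not tested. By these markers the cells were B cell-like, as the name of the gene set has them. Their median cell had 12490 UMIs, above the 6346 of cluster 5, the next B cell group compared below, and the 2980 of cluster 14, which held most SM/J B cells at 12 months, in the same matrix. The cells were thinned to equal depth for the shares of cells below, and any other part of depth in the levels was not tested. All 7 clusterings tried gave a B cell-like cluster with 5 to 7 of the 9 genes among its 10 leading genes, never Rdh12 or Fgl2. Meis1 was among them only in the 1 clustering that used the 9 genes. Leading these cells is how the genes were chosen, so this is a description. The cluster had 858 to 891 cells in 6 of the clusterings. It had 202 cells, 7 of them from BL/6, when only cells with at most 5% mitochondrial UMIs were used.

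Zcwpw1, the histone reader, was high in every aliquot of SM/J at 20 months and low in all others. In all B cell-like cells it stood at 91.9, 78.4 and 85.7 CPM in the 3 aliquots of BL/6 at 12 months and at 27.8, 15.1 and 28.8 CPM at 20 months. SM/J aliquots held 90.8, 142 and 84.2 CPM at 12 months and 1255, 1273 and 1285 CPM at 20 months. The last 3 lay apart from all others, while BL/6 and SM/J at 12 months overlapped and BL/6 at 20 months was lowest. Within cluster 24 the level was 1587 CPM at 20 months and 973 CPM in the 18 cells of 12 months. A cell of cluster 24 at 20 months had a median of 19 Zcwpw1 UMIs, with a range of 0 to 161, and 816 of 848 cells had at least 5.

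Meis1, the other nuclear regulator, was almost unseen in B cell-like cells elsewhere. Its aliquots held 0.673, 4.14 and 1.10 CPM in BL/6 at 12 months and 1.59, 0 and 1.23 CPM at 20 months. In SM/J they held 5.80, 13.2 and 10.0 CPM at 12 months and 153, 147.5 and 177 CPM at 20 months. All SM/J aliquots were above all BL/6 aliquots, and SM/J at 20 months lay far above SM/J at 12 months. The level in cluster 24 was 216 CPM at 20 months, with aliquots from 198 to 245 CPM, and 80.7 CPM in the 18 cells of 12 months.

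Signalling and vesicle genes followed the same split. Gnb3 aliquots ranged from 2.21 to 3.80 CPM and from 1.08 to 3.67 CPM in BL/6 at 12 and 20 months, from 5.80 to 27.1 CPM in SM/J at 12 months and from 178 to 198 CPM in SM/J at 20 months. Adgrl2 aliquots held 15.2, 20.7 and 9.19 CPM in BL/6 at 12 months, 2.38, 4.32 and 17.2 CPM in BL/6 at 20 months, 9.66, 13.9 and 10.0 CPM in SM/J at 12 months, and 176, 185 and 173 CPM in SM/J at 20 months. Unlike Gnb3, Adgrl2 was no higher in SM/J than in BL/6 at 12 months. Syn3 aliquots ranged from 14.8 to 17.6 CPM and from 5.40 to 26.3 CPM in BL/6 at 12 and 20 months, overlapped with the 13.5 to 34.5 CPM of SM/J at 12 months, and stood at 198 to 235 CPM in SM/J at 20 months. For all 3 genes the aliquots of SM/J at 20 months lay above every other aliquot.

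The enzymes differed in their base level. Rdh12 had the most even base: its B cell-like aliquots held 30.1 to 34.3 CPM and 23.8 to 36.7 CPM in BL/6 at 12 and 20 months, 50.2 to 93.1 CPM in SM/J at 12 months and 379.5 to 415 CPM in SM/J at 20 months. Between 11.2% and 64.5% of B cell-like cells of a matrix had an Rdh12 UMI. Lipc aliquots held 2.42 to 5.05 CPM and 2.16 to 3.97 CPM in BL/6, 16.2 to 30.1 CPM in SM/J at 12 months and 144 to 147.5 CPM in SM/J at 20 months. Neither gene's SM/J aliquots overlapped with its BL/6 aliquots at the same age.

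Of the filament and secreted genes, Krt18 aliquots held 1.47 to 3.45 CPM in BL/6 at 12 months, 0.793 to 6.48 CPM in BL/6 at 20 months, 10.8 to 27.9 CPM in SM/J at 12 months and 99.0 to 116 CPM in SM/J at 20 months. Fgl2 aliquots held 9.19 to 11.4 CPM and 2.45 to 3.97 CPM in BL/6 at 12 and 20 months, 21.6 to 34.8 CPM in SM/J at 12 months and 247 to 267 CPM in SM/J at 20 months. The 4 matrices did not overlap for Fgl2, and for Krt18 only the BL/6 ages overlapped with each other.

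**Figure D1:**
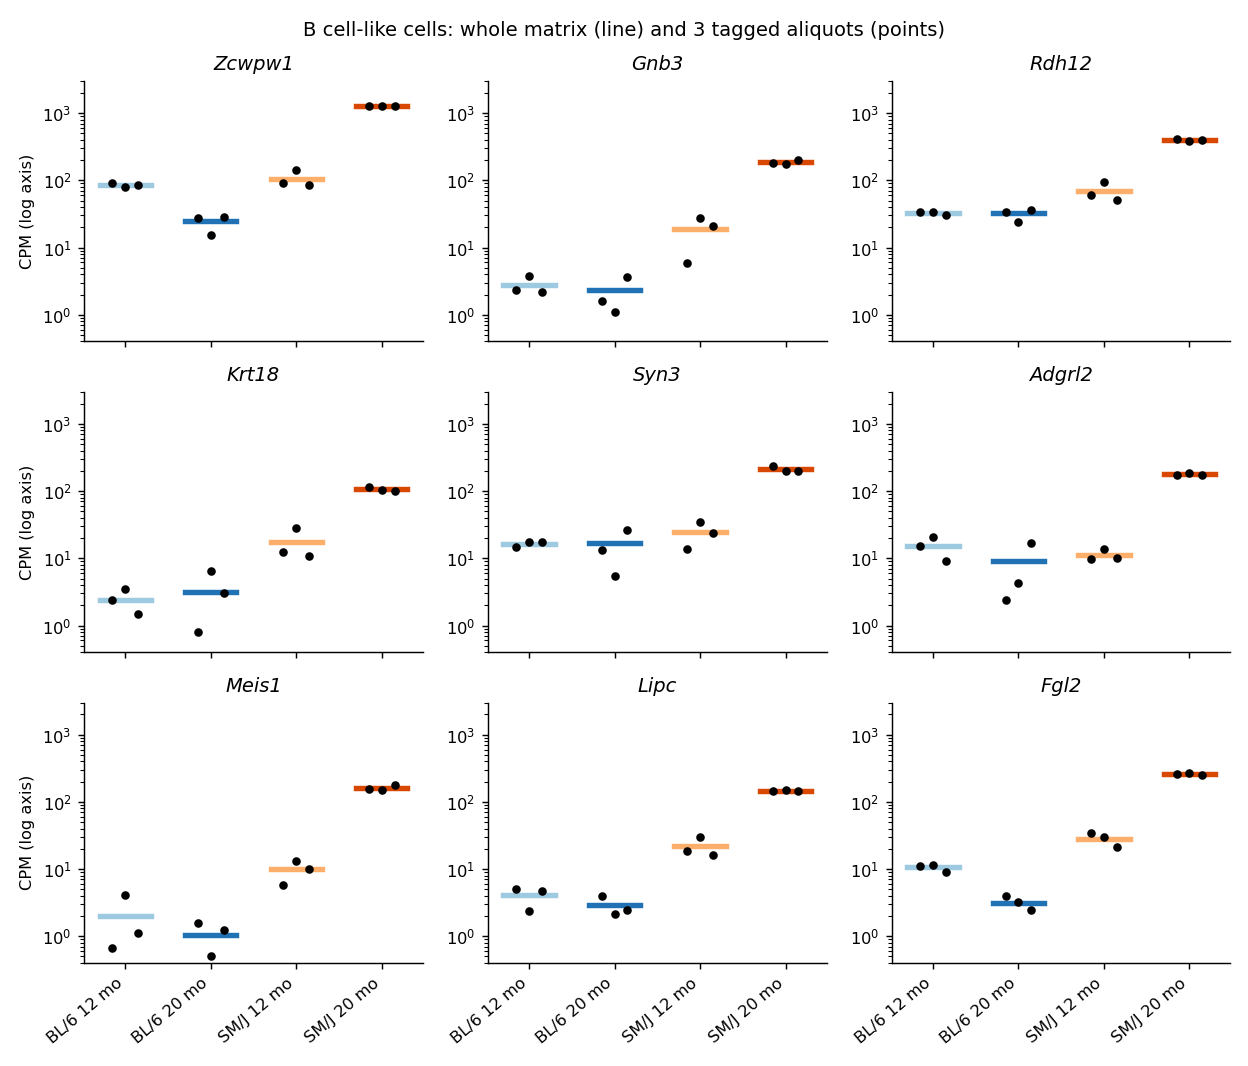
CPM (log axis) of each of the 9 genes in all B cell-like cells of the 4 matrices; a line is the whole matrix and points are its 3 tagged aliquots, with the BL/6 20 months aliquot that had no Meis1 UMI drawn near the foot of the axis. For each gene the 3 aliquots of SM/J at 20 months lie above every other point, Zcwpw1 at 1255 to 1285 CPM.

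Comparisons between matrices were made as the log2 ratio of CPM + 1 with a 95% interval that covers counting error only. A gene with at least 20 UMIs over both sides was called when the ratio was 2-fold or more and the interval left out no difference. In SM/J at 20 over 12 months all 9 genes were called higher, where 8.12% of all genes were, and in SM/J over BL/6 at 20 months all 9 were called higher, where 12.6% were. Both counts restate the choice of the genes, and nothing is read from them. At 20 months the ratios of SM/J over BL/6 ran from 3.56 for Syn3 to 6.29 for Meis1, with a median of 5.24 over the 9 and -0.17 over all genes. The ratios for age in SM/J ran from 2.50 (2.33 to 2.69) for Rdh12 to 3.87 for both Adgrl2 (3.46 to 4.30) and Meis1 (3.44 to 4.33) on the log2 scale, with a median of 3.15 over the 9 and of -0.04 over all genes. Without clusters 24 and 17, the latter a small cycling B cell-like cluster, none of the 9 was called higher with age in SM/J, and Zcwpw1 stood at -0.97. The age and the strain comparisons share the SM/J matrix of 20 months.

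Pooled over their clusters, SM/J B cell-like cells already held more of several genes at 12 months. Called higher than in BL/6 were 6 of the 9, against 3.73% of all genes called higher: Krt18 at a log2 ratio of 2.42 (1.84 to 2.99), Gnb3 at 2.39 (1.82 to 2.93), Lipc at 2.17 (1.66 to 2.67), Meis1 at 1.88 (1.21 to 2.51), Fgl2 at 1.34 (0.94 to 1.73) and Rdh12 at 1.05 (0.81 to 1.30). Zcwpw1, Syn3 and Adgrl2 stood at 0.32, 0.55 and -0.39. The median was 1.34 over the 9 and -0.09 over all genes. The count rested in part on 18 cells: without clusters 24 and 17, 3 genes were called higher, Gnb3 fell to 0.61, Rdh12 to 0.43 and Krt18 to 0.84, and Adgrl2 was called lower at -1.81. Rdh12 was 0.74 without aliquot 2 of SM/J at 12 months. Fgl2 was 0.62 at a coarser clustering and 0.04 when cells were assigned to the B lineage by transcripts alone, and it was not called in either. The mix of clusters differed too: cluster 5, compared below, was 25.2% of these cells in SM/J and 14.97% in BL/6. Within it 1 of 9 genes was called higher in SM/J, Meis1, and 3 were called lower. There Gnb3 stood at -0.29, Rdh12 and Krt18 at 0.16, Fgl2 at 0.21 and Lipc at 0.94. The part of the mix in the pooled ratios was not tested.

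In BL/6 none of the 9 genes was called higher at 20 over 12 months and 2 were called lower, where 1.07% of all genes were called in each direction. Zcwpw1 had a log2 ratio of -1.72 (-2.03 to -1.42), with 96 against 733 UMIs, and Fgl2 one of -1.48 (-2.20 to -0.76), with 12 against 91 UMIs. Adgrl2 stood at -0.66 (-1.18 to -0.16), and was called lower at -1.94 without aliquot 3 of BL/6 at 20 months. Rdh12 (0.00), Syn3 (0.04), Gnb3 (-0.17), Krt18 (0.27), Lipc (-0.38) and Meis1 (-0.54) were not called. Zcwpw1 was not called among cells with at most 5% mitochondrial UMIs, where it stood at -0.30. Fgl2 was not called in those cells at -1.21, nor when B cells were assigned by transcripts at -0.31, nor with 5 CPM in place of 1 at -0.93.

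**Figure D2:**
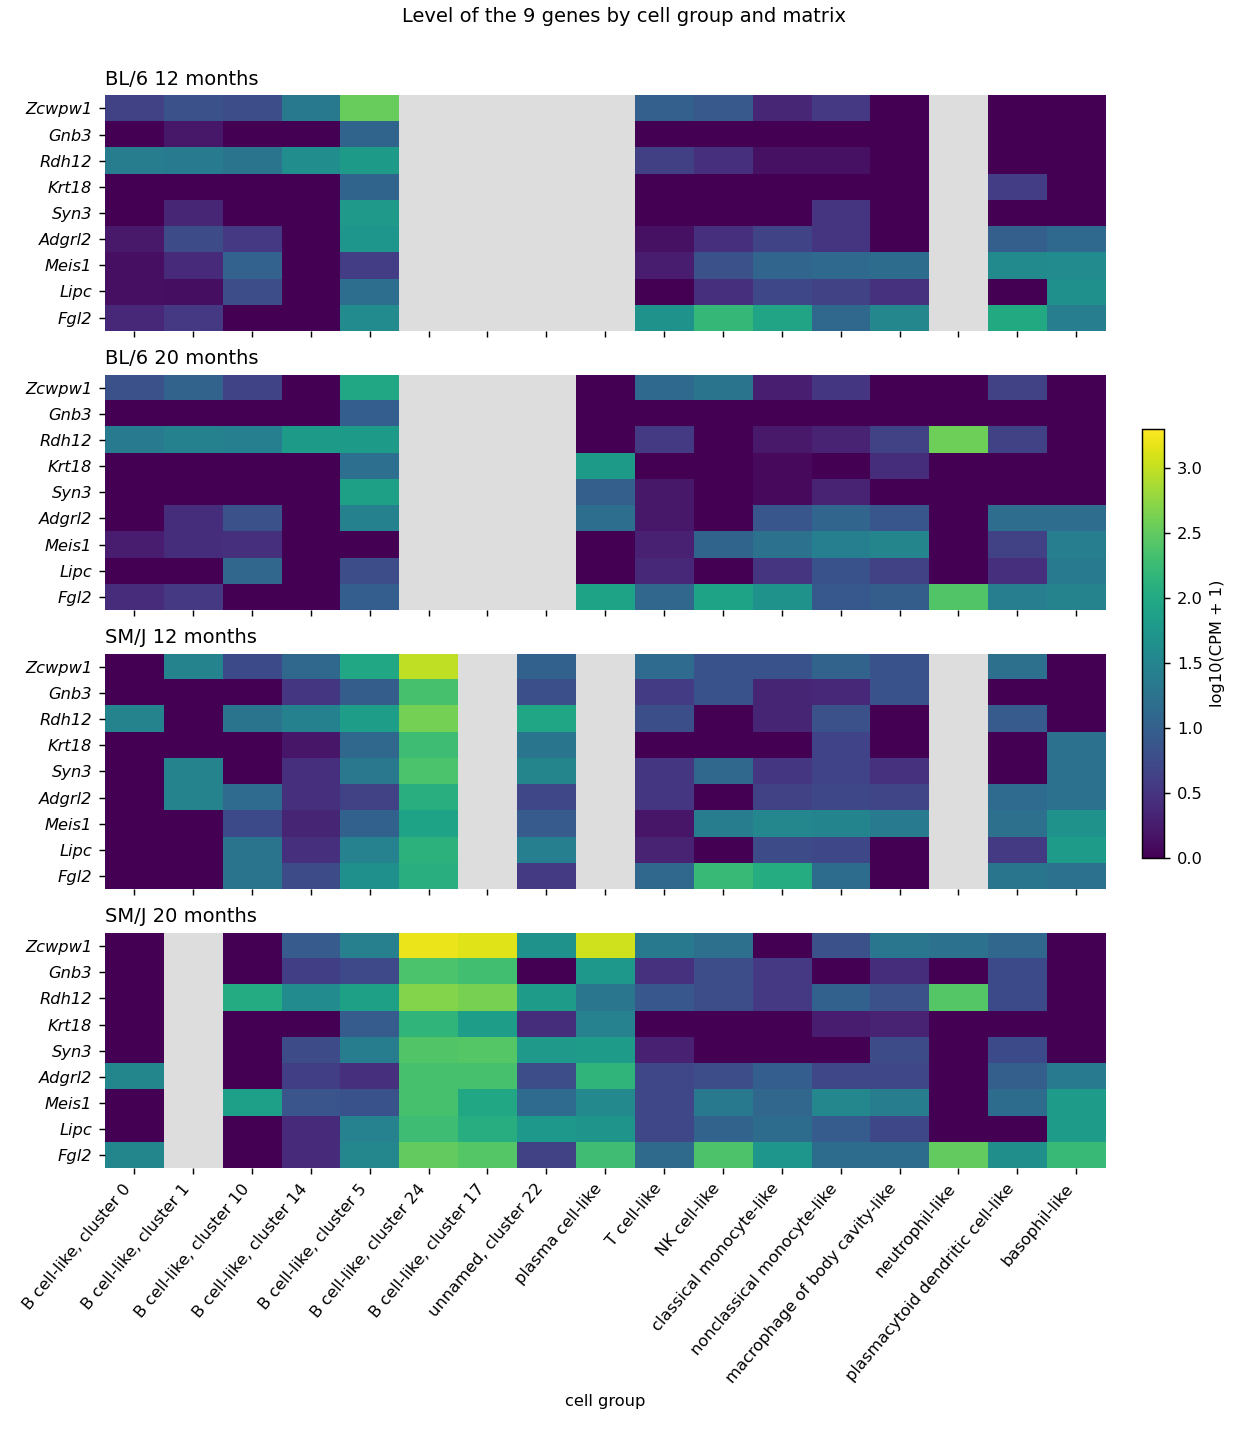
Level of the 9 genes as log10(CPM + 1) (colour) in each cell group (columns) and matrix (panels); grey marks a group with fewer than 10 cells. In SM/J at 20 months clusters 24 and 17 and the plasma cell-like cells are bright for most genes, and in BL/6 at 12 months cluster 5 is brightest for Zcwpw1, at 337 CPM.

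In BL/6 at 12 months most UMIs of 5 of the 9 genes were in cluster 5. That cluster was led by Fcrl5, Sox5, Bhlhe41 and Zbtb32, genes known from B-1 and memory-type B cells, and held 300, 126, 221 and 398 cells of BL/6 at 12 and 20 months and SM/J at 12 and 20 months. At 12 months in BL/6 it held 88.3% of all Zcwpw1 UMIs of the kept cells, 87.5% of Gnb3, 95.5% of Krt18, 79.9% of Syn3 and 70.9% of Adgrl2. It held 46.8% of Lipc and 42.3% of Rdh12, but 12.99% of Fgl2 and 5.88% of Meis1, most of which lay outside the B lineage.

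BL/6 cells of cluster 5 were compared with the B cell-like clusters 0, 1 and 10, which made up most BL/6 B cells. At 12 months 8 of the 8 genes with enough UMIs were called higher in cluster 5, against 4.65% of all genes, and the median was 3.64 over the genes tested and -0.20 over all. Apart from Zcwpw1, with 30 UMIs in the other clusters, and Rdh12, with 149, these genes reached the UMI minimum only through cluster 5, so nothing is read from the count. Zcwpw1 stood at 337 CPM in cluster 5, a log2 ratio of 5.91 (5.46 to 6.37), from 679 against 30 UMIs. Syn3 was higher by 5.21, Adgrl2 by 3.84, Fgl2 by 3.76, Lipc by 3.25, Gnb3 by 3.13 and Rdh12 by 1.41. Krt18 had 21 UMIs in cluster 5 and none in the others, at least 22.5-fold higher against a floor of 3 UMIs. Meis1 had 6 against 10 UMIs and was too low to compare.

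At 20 months in BL/6 the 4 genes with enough UMIs were called higher in cluster 5, where 3.67% of all genes were. Syn3 and Adgrl2 reached the minimum only through cluster 5, while Zcwpw1 had 21 UMIs and Rdh12 72 in the other clusters, so nothing is read from the count. Zcwpw1 stood at 3.53, Adgrl2 at 3.41 and Rdh12 at 1.33, and Syn3 had 60 UMIs against none, at least 74.1-fold higher. Among cells with at most 5% mitochondrial UMIs, which were 36 of the 300 in BL/6 at 12 months, 3 genes were called: Zcwpw1 at 6.03, Syn3 at 5.31 and Adgrl2 at 3.20. Without aliquot 1 of BL/6 at 12 months 5 were called. The calls of Gnb3 and Krt18, with 21 UMIs each in cluster 5 at 12 months, were lost without any 1 aliquot. Their ratios then ran from 2.99 to 3.385 and from 3.17 to 3.76. Gnb3 stood at -0.67 in the cells with at most 5% mitochondrial UMIs. Cells of cluster 5 had a median of 6.23% mitochondrial UMIs in BL/6 at 12 months, and the part of RNA quality in the result was not tested.

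SM/J cells of cluster 5 were set against cluster 14 of the same strain. Here too several genes reached the UMI minimum through cluster 5, and nothing is read from the counts. At 12 months 5 of 5 genes were called higher, against 4.55% of all genes: Lipc at 3.41, Fgl2 at 2.97, Syn3 at 2.93, Zcwpw1 at 2.86 and Rdh12 at 1.34. At 20 months 5 of 7 were called higher, against 5.09%: Fgl2 at 3.71, Lipc at 3.49, Syn3 at 2.12, Zcwpw1 at 1.61, and Krt18 with 22 UMIs against none. The Krt18 bound against the floor of 3 UMIs was 1.7-fold, below the 2-fold threshold, and 68.2% of the 22 UMIs were in 1 of the 398 cells. Rdh12 at 0.93 and Meis1 at -0.09 were not called. Zcwpw1 and Syn3 were called higher in cluster 5 in both strains at both ages, and nothing is read from the repeat. Syn3 reached the minimum only through cluster 5 each time, with 4 and 0 UMIs in the compared clusters of BL/6 at 12 and 20 months and 3 in SM/J at each age. The same held for Zcwpw1 in SM/J at 20 months, with 71 against 5 UMIs. In SM/J at 20 months the Zcwpw1 call was lost without aliquot 3, at 1.21, and the Syn3 call without aliquot 2, at 1.73. Krt18 was lost without aliquot 1, at 1.35. Cells with at most 5% mitochondrial UMIs left 3 calls at 12 months and 2 at 20 months.

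Cluster 5 itself differed between the strains. Adgrl2 was 53.1 and 27.6 CPM in BL/6 at 12 and 20 months and 3.47 and 1.83 CPM in SM/J, with aliquots of 36.5 to 68.7 and 9.11 to 41.7 CPM in BL/6 and of at most 6.10 CPM in SM/J. The aliquots did not overlap between the strains. Zcwpw1 was 337 and 92.7 CPM in BL/6 and 91.5 and 26.0 CPM in SM/J, and Syn3 59.0 and 75.2 CPM against 20.1 and 23.8 CPM. Cells with at least 5 Zcwpw1 UMIs held 92.05% and 71.6% of these Zcwpw1 UMIs for BL/6 at 12 and 20 months, and 65.9% and 23.9% for SM/J. Among cells with fewer than 5 Zcwpw1 UMIs, a split by Zcwpw1 itself chosen after the values were seen, BL/6 stood at 35.2 CPM and SM/J at 33.5 CPM at 12 months (252 and 213 cells). At 20 months these cells stood at 29.5 CPM for BL/6 and 20.0 CPM for SM/J (118 and 396 cells). At 12 months these 3 of 9 genes were called lower in SM/J (log2 ratios of -3.60, -1.87 and -1.51), where 4.56% of all genes were, and at 20 months the same 3 of 7 (-3.33, -1.79 and -1.62), where 4.1% were. Called higher in SM/J were 1 of 9 at 12 months, Meis1 at 1.43, where 3.17% of genes were, and 2 of 7 at 20 months, Lipc at 2.26 and Fgl2 at 1.78, where 4.03% were. The Meis1 call was lost whenever any 1 of the 6 aliquots was left out, and the Adgrl2 call at 20 months without aliquot 3 of BL/6, at -2.45. Lipc at 20 months stood at 0.25 in cells with at most 5% mitochondrial UMIs.

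With age, Zcwpw1 was lower in cluster 5 of both strains. Cells with at least 5 Zcwpw1 UMIs were 48 of 300 and 8 of 126 for BL/6 at the younger and older age, and 8 of 221 and 2 of 398 for SM/J, and the levels without them are those given above. In BL/6, 3 of 8 genes were called lower at 20 months, against 1.94% of all genes: Fgl2 at -1.99, Zcwpw1 at -1.85 and Lipc at -1.36 (-2.80 to -0.01), the last of which was lost in 5 of the 6 fits that left out 1 aliquot. Adgrl2, at -0.92, was called lower without aliquot 3 of either age, at -1.12 and -1.81. In cells with at most 5% mitochondrial UMIs 1 gene was called lower. In SM/J, 1 of 8 was called lower, Zcwpw1 at -1.78, against 1.23%. The Zcwpw1 aliquots of cluster 5 ran from 299.9 to 379.7 CPM in BL/6 at 12 months, 56.4 to 104.8 CPM in BL/6 at 20 months, 91.0 to 94.2 CPM in SM/J at 12 months and 18.8 to 31.6 CPM in SM/J at 20 months. The ages did not overlap within a strain.

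**Figure D3:**
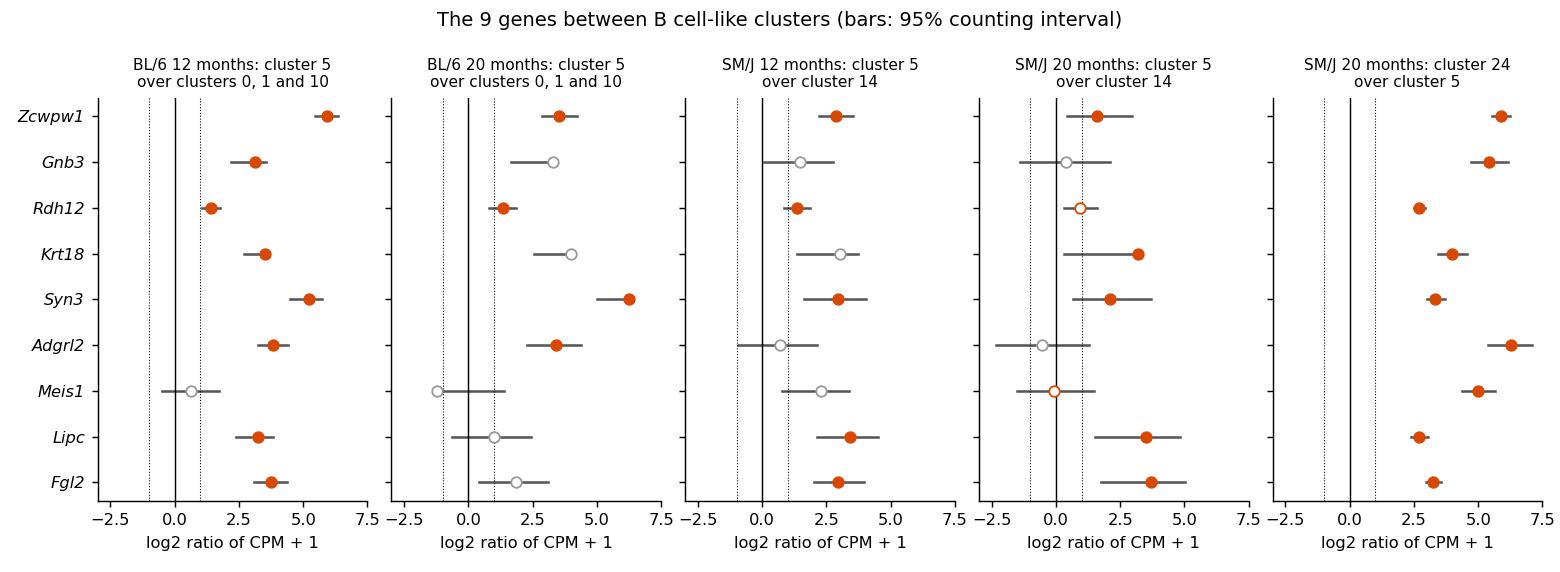
Log2 ratio of CPM + 1 (x axis) for the 9 genes (rows) between B cell-like clusters of 1 matrix, with 95% counting intervals as bars; filled points were called, open orange points were compared and not called, and grey outlines had too few UMIs. Zcwpw1 and Syn3 are filled in all 5 panels, Zcwpw1 at 5.91 in the first panel and 5.88 in the last.

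High Zcwpw1 in BL/6 came from few cells. At 12 months 49 BL/6 cells had at least 5 Zcwpw1 UMIs, and 48 of them lay in cluster 5, drawn from all 3 aliquots (18, 14 and 17 of the 49). At 20 months there were 9, of which 8 were in cluster 5. SM/J had 24 such cells at 12 months, 15 of them in cluster 24, and 910 at 20 months, 816 of them in cluster 24. The 48 cells were set against the other 252 cells of cluster 5 after their values were seen, with median depths of 9691 and 5501 UMIs. The values are therefore descriptions, and the Zcwpw1 levels of 1294 and 35.2 CPM made the split. Syn3 stood at 166 against 25.4 CPM, Adgrl2 at 114 against 33.9 CPM, Gnb3 at 33.1 against 3.26 CPM and Lipc at 33.1 against 8.48 CPM. Fgl2 was close in both, at 41.4 and 36.5 CPM, and the Meis1 UMIs, 5 against 1, came from 1 cell in each. Of the 48 cells, 9 had a leading light chain segment with at least 3 UMIs, and in 8 of these it was Igkv14-126. In the other 252 cells it was Igkv14-126 in 2 of 9.

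Cluster 24 was higher than cluster 5 of the same matrix for all 9 genes, where 7.55% of all genes were called higher and 7.99% lower. These are the values that chose the genes. The log2 ratios were 6.26 for Adgrl2, 5.88 for Zcwpw1, 5.43 for Gnb3, 4.98 for Meis1, 3.97 for Krt18, 3.33 for Syn3, 3.25 for Fgl2 and 2.70 for both Rdh12 and Lipc. Against all other B cell-like cells of the matrix 8 of 9 were called higher, where 2.52% of genes were called higher and 7.56% lower, from 2.24 for Meis1 to 1.06 for Rdh12. Syn3, at 0.88, was not called. Those other cells included the 69 cells of cluster 17, led by cell cycle genes, with a median of 27580 UMIs. They held 1371 CPM of Zcwpw1, 424 of Rdh12, 271 of Syn3, 268 of Fgl2, 218 of Adgrl2 and 201 of Gnb3, each within 1.5 times of cluster 24. Krt18 (70.0 against 141 CPM), Meis1 (90.8 against 216) and Lipc (113 against 187) were lower in it.

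Plasma cell-like cells of SM/J at 20 months, 24 in number, carried some of the genes but not others. They held 1135 CPM of Zcwpw1, 192 of Fgl2, 142 of Adgrl2, 66.0 of Syn3, 56.6 of Gnb3, 50.3 of Lipc, 34.6 of Meis1 and 28.3 of Krt18. Rdh12 was 18.9 CPM in them against 481 in cluster 24. In these 24 cells 1 cell carried 83.3% of the Rdh12 UMIs, and 2 cells carried 52.4% of the Syn3 UMIs. The 46 plasma cell-like cells of BL/6 at 20 months had no Zcwpw1 UMI but held 80.9 CPM of Fgl2 and 61.1 CPM of Krt18, of which 1 cell carried 73.5%. Clusters 24, 17 and the plasma cell-like cluster together held between 92.8% (Meis1) and 99.1% (Gnb3) of each gene's UMIs in SM/J at 20 months.

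Cluster 24, an unnamed cluster and cells outside the B lineage each held a large share of some of the genes in the 12-month SM/J matrix. The 18 cells of cluster 24 held 48.7% of the Zcwpw1 UMIs of the matrix, 54.0% of Gnb3, 36.6% of Adgrl2 and 35.6% of Krt18. Cluster 22, led by Pigr, Fras1 and Epcam and left unnamed, had 405 cells at 12 months and 72 at 20 months. The B cell marker list summed to 8514 and 10850 CPM in it at these ages, against 11470 CPM in cluster 24 at 20 months. All 7 B cell markers were in at least 10% of its cells. The values for B cell-like cells leave cluster 22 out, and its cells are not among those outside the B lineage. It held 48.1% of Rdh12 UMIs, 44.7% of Syn3, 42.0% of Lipc and 40.9% of Krt18 at 12 months, at levels of 89.3, 30.5, 25.2 and 17.9 CPM. Zcwpw1 stood at 9.63 CPM in it and Fgl2 at 2.66 CPM, and 26.7% of Zcwpw1 UMIs were in cluster 5. Outside the B lineage lay 70.3% of Meis1 UMIs, 63.3% of Fgl2 and 34.2% of Adgrl2.

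The genes were seen together in single cells. They were chosen by their levels in B cells of SM/J at 20 months, so the high shares of that matrix are a description. Of the 848 cells of cluster 24 in SM/J at 20 months, 191 had a UMI of all 9 genes, 245 of 8, 213 of 7 and 106 of 6, and 1 cell had only 1. The share of cells with a UMI was 99.6% for Zcwpw1, 92.9% for Rdh12, 85.0% for Fgl2, 83.8% for Gnb3, 80.3% for Adgrl2, 75.7% for Syn3, 74.4% for Meis1, 71.5% for Lipc and 71.1% for Krt18. To take out depth, each cell was thinned to 1000 UMIs. The share of B cell-like cells with 3 or more of the 9 genes was then 26.2% (Clopper-Pearson 95% interval 24.04 to 28.5) in SM/J at 20 months, and 60.7% unthinned. It was 0.459% (0.125 to 1.17) in SM/J at 12 months and 0.0999% (0.0121 to 0.360) in BL/6 at 12 months, against 4.90% and 2.89% unthinned. In BL/6 at 20 months 0 of 949 cells had 3 genes after thinning, which allows a share of up to 0.316%, and 1.89% had them unthinned. Thinning left out 1 to 6 B cell-like cells a matrix. T cell-like, NK cell-like and monocyte-like cells had none after thinning in any matrix. Of the body cavity macrophage-like cells of SM/J at 20 months, 2 of 397 (0.504%) had 3 genes after thinning and 3 before it. T cell-like cells had none before thinning, at median depths of 4002 to 5203 UMIs against 3169 to 9811 for B cell-like cells. Among monocyte-like cells the unthinned share reached 2.63%, in classical ones of SM/J at 12 months. Within cluster 24 at 20 months the thinned share was 44.8% (41.4 to 48.2) and the unthinned 99.5%.

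**Figure D4:**
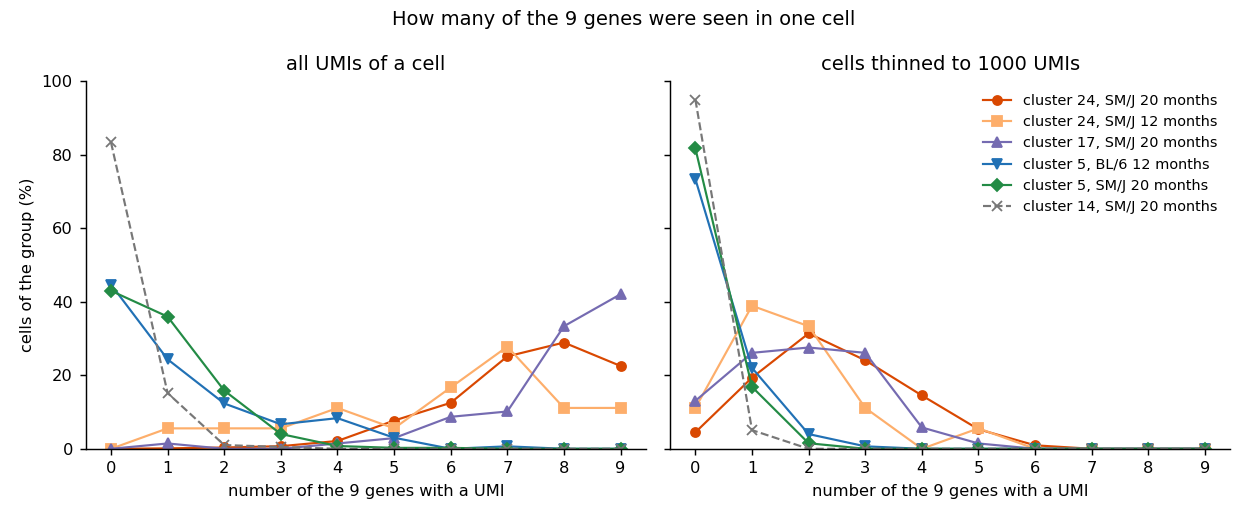
Percent of the cells of a group (y axis) by how many of the 9 genes had a UMI in a cell (x axis), with all UMIs of a cell (left) and with each cell thinned to 1000 UMIs (right). Cluster 24 of SM/J at 20 months lies to the right of clusters 5 and 14 in both panels, and 191 of its 848 cells had all 9 genes before thinning.

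Several of the genes were also seen in other blood lineages. Fgl2 stood at 156, 81.8, 170 and 240 CPM in NK cell-like cells of BL/6 at 12 and 20 months and SM/J at 12 and 20 months, and at 83.1, 48.3, 111 and 54.0 CPM in classical monocyte-like cells. T cell-like cells held 48.1 CPM of Fgl2 in BL/6 at 12 months and 11.1, 12.2 and 12.9 CPM in the others. Meis1 was 12.4 to 33.1 CPM in nonclassical monocyte-like cells and 25.04 to 64.6 CPM in basophil-like cells, and Lipc 21.5 to 65.4 CPM in basophil-like cells. Adgrl2 had 70.1% of its BL/6 UMIs at 20 months outside the B lineage, 52 of 144 in nonclassical monocyte-like cells at 10.9 CPM, and 38.5% of Zcwpw1 UMIs of that matrix lay outside it. The 11 neutrophil-like cells of each 20-month matrix held 378 and 269 CPM of Rdh12 in BL/6 and SM/J, from 15 and 17 UMIs. Zcwpw1 in T cell-like cells, 9.2 to 20.8 CPM, was not told apart from free RNA in droplets. After thinning, 0.226% to 1.39% of T cell-like cells had a Zcwpw1 UMI, against 75.2% of cluster 24 at 20 months.

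Cells of cluster 24 were also grouped by their leading immunoglobulin light chain segment. The leading segment with at least 3 UMIs in a cell was Igkv14-126 in 190 cells (22.4%), Igkv17-127 in 156 (18.4%) and Igkv17-121 in 67 (7.90%), each found in all 3 aliquots (52, 74 and 64; 54, 49 and 53; 18, 26 and 23 cells). No segment was called in 426 cells (50.2%). Where a leading heavy chain segment was called, it was Ighv11-2 in 7 of 7 cells with Igkv14-126, Ighv2-5 in 59 of 59 with Igkv17-127 and Ighv1-66 in 35 of 35 with Igkv17-121. Ighv11-2 with Igkv14-126 is a pair known from mouse B-1 cells that bind phosphatidylcholine. These groups were chosen after the data were seen, and near-identical segments may share reads.

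Krt18 was 287 CPM in the Igkv17-127 cells, against 93.5 CPM in the Igkv14-126 and 64.1 CPM in the Igkv17-121 cells. Its aliquots ran from 246 to 325 CPM in the first of these and from 82 to 104 and 52 to 79 CPM in the others, without overlap. Meis1 was 248 CPM with Igkv14-126, 332 CPM with Igkv17-127 and 59.7 CPM with Igkv17-121, with aliquots of 201.5 to 277, 289 to 406 and 47 to 89 CPM. Lipc was highest with Igkv14-126, at 275 CPM against 163.5 and 153, and Rdh12 lowest there, at 347.5 CPM against 632 and 492. Zcwpw1 differed less, at 1715, 1431 and 1783 CPM, and Gnb3 (194, 264 and 292 CPM), Syn3 (231, 217 and 357 CPM), Adgrl2 (240, 181 and 276 CPM) and Fgl2 (315, 254 and 430 CPM) stayed within 2-fold.

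Called between these groups were 1 of 9 genes for Igkv14-126 over Igkv17-127 (Krt18, log2 ratio -1.61), where 6.11% of all genes were called in either direction. For Igkv14-126 over Igkv17-121 it was 1 of 9 (Meis1, 2.03), where 7.13% were, and for Igkv17-127 over Igkv17-121 it was 2 of 9 (Krt18 at 2.15 and Meis1 at 2.46), where 8.73% were. Counts of 1 and 2 of 9 are near these shares, so the values describe Krt18 and Meis1 and are no result about the 9 genes together. With at least 5 UMIs of a segment the counts were 2, 2 and 2. The median cell had 13820 UMIs with Igkv14-126, 11740 with Igkv17-127 and 26970 with Igkv17-121, and the part of depth in these differences was not tested. The same 3 segments led in 14, 4 and 3 of the 24 plasma cell-like cells of the matrix and in 19, 10 and 25 of the 69 cells of cluster 17, and in none of the 398 cells of cluster 5. Ighv11-2 was the leading heavy chain segment in 9 of the 9 plasma cell-like cells with Igkv14-126 and a called heavy chain.

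**Figure D5:**
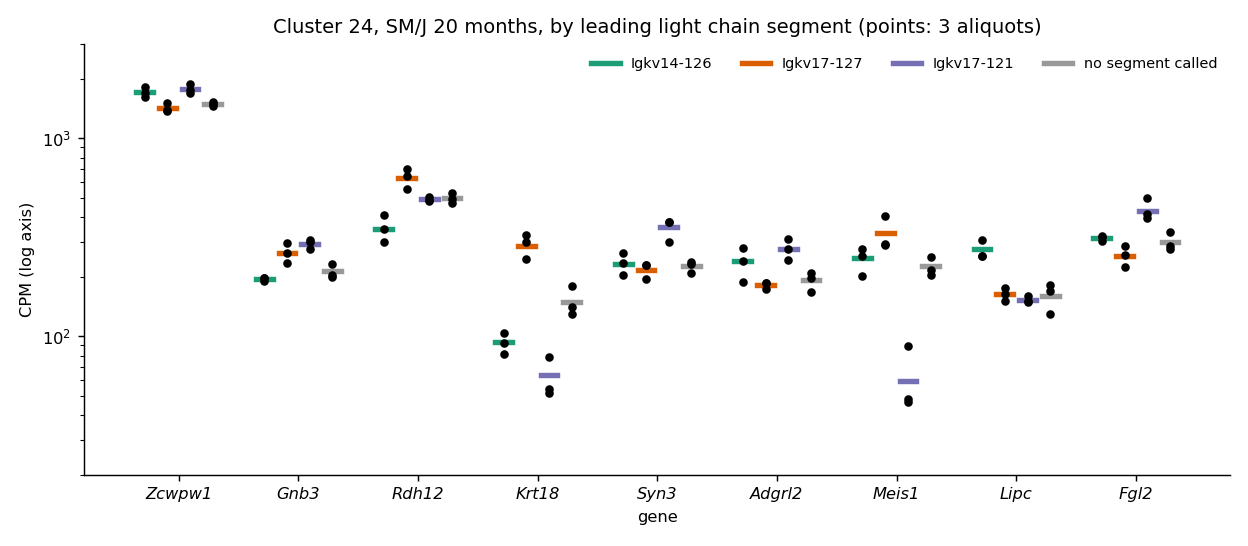
CPM (log axis) of the 9 genes in cluster 24 cells of SM/J at 20 months, by the leading light chain segment; lines are all cells of a segment group and points its 3 tagged aliquots. Krt18 is highest with Igkv17-127, at 287 CPM, and Meis1 lowest with Igkv17-121, at 59.7 CPM.

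Marker lists of B cell classes were read beside the 9 genes, as counts. Of 15 B-1 cell genes 12 were called higher in cluster 5 than in clusters 0, 1 and 10 of BL/6 at 12 months and none lower, with a median log2 ratio of 2.33, where 4.65% and 6.98% of all genes were called in these directions. In the same comparison 5 of 7 tested age-associated B cell genes were called higher and none lower, with a median of 1.29. They were Tbx21, Cxcr3, Zeb2, Itgb1 and Fcrl5, the last of which is on both lists. Cluster 24 against cluster 5 had 4 higher (Ctla4 1.95, Itgam 1.79, Pdcd1lg2 1.60 and S100a6 1.25) and 2 lower (Cd9 -1.56 and Bhlhe40 -1.45) of 15, where 7.55% of all genes were called higher and 7.99% lower. The same shares apply to the lists that follow. Of the follicular B cell genes, Ccr7 (-4.64), Cr2 (-4.08), Ighd (-3.05) and Fcer2a (-2.66) were called lower in cluster 24 than in cluster 5; they are part of that list, whose other genes are not described here. Of the marginal zone genes S1pr3 (3.14), a receptor for sphingosine phosphate, and Cd36 (2.85), a lipid scavenger receptor, were higher in cluster 24 and 3 of the 7 tested were lower. Of 5 tested age-associated B cell genes Itgb1 (1.41) was higher and Cd72 (-2.95) lower, while Itgax and Tbx21, which define such cells, had 3 and 2 UMIs in the comparison.

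Partners and relatives of the 9 genes were read from lists of their families. Of 73 family relatives 37 had enough UMIs in cluster 24 and cluster 5, with a median log2 ratio of 0.10 against -0.03 over all genes. Only Gng13, a G protein gamma subunit known from taste cells, was called higher, at 3.93 from 251 against 1 UMIs. Over all genes 7.55% were called higher and 7.99% lower, so 1 of 37 higher is no more than the background. Called lower were 6 of the 37. Krt8, the usual partner of Krt18, was lower with 8 against 29 UMIs, and Krt19 had none against 35. The Meis1 partner Pbx3 (236 against 167 UMIs, log2 ratio -1.66) was lower too, as were Flrt2, a ligand of latrophilins, with none against 45 UMIs and Fcgr2b at -1.55. Markers of epithelial and endothelial cells summed to 124 CPM in cluster 24 and 230 CPM in cluster 5, with Krt19 at 0 in the former.

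Genes next to the 9 on the chromosome were also read. None of the 22 neighbours was called higher in cluster 24 than in the other B cell-like cells, where 2.52% of all genes were, so a count of none is near the background. Several, such as Bpifc with 3 against 0 UMIs, were too low to be called. Lower were Cdca3, beside Gnb3, at -5.02 (11 against 376 UMIs) and Krt8, beside Krt18, at -1.86. Of all genes 7.56% were called lower in this comparison. The other B cell-like cells included the small cycling cluster described above, led by cell cycle genes, and its part in the Cdca3 ratio was not tested. Spred2 (0.95), Ttll7 (0.94) and the overlapping genes Pilra (0.87), Ccdc146 (0.84) and Timp3 (0.79) lay below 2-fold.

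Over 57 groups of at least 30 cells, each a cluster in 1 matrix, profiles of log2(CPM + 1) were set against 11330 genes. These are descriptions across groups that share libraries and depth, and correlated genes were chosen as the most alike of all. Krt18 was most like Gng13 (Pearson r 0.91), Cacna1s (0.88) and Aldh1l2 (0.84), and Rdh12 most like Ighm (0.88). Syn3 was most like Rab3b (0.85), a vesicle GTPase, Gnb3 most like Ighg3 (0.82) and Zcwpw1 most like Zfp811 (0.75) and Ighg3 (0.75). Adgrl2 was most like Igkv14-126 (0.69), Meis1 most like Tmco1 (0.77), Lipc most like S1pr3 (0.66) and Fgl2 most like S100a6 and Lgals1 (both 0.67). Among the 36 pairs of the 9 genes r ran from 0.03 for Rdh12 and Fgl2 to 0.81 for Krt18 and Syn3, with a median of 0.48.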

How the data were processed

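The deposited files hold UMI counts per gene and cell in 4 matrices, made with Cell Ranger 7.0.1 per the file headers, with mm10 and Seurat 4.3.0 named in the submitters' processing notes. Other steps are not given in the sources read here. No value was normalized by the authors in these files. The build derives from BL/6, and its effect on SM/J counts was not tested. The deposited matrices also count 12 tag oligos, which gave 3 aliquots a matrix.

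Barcodes were kept from 500 UMIs and 200 genes up, with a mitochondrial share of no more than 10%. Doublets were called with Scrublet per 10x sample at an assumed rate of 0.06, which marked 39, 43, 23 and 25 cells (0.923% to 1.37% of a matrix), and were removed. Scanpy 1.11.5 (Python 3.11.15) clustered the cells on 2000 variable genes, leaving out the 9 genes, antigen receptor segments, Xist, and mitochondrial and Y-linked genes, with 30 principal components, 15 neighbours and Leiden resolution 1.0. Clusters were named from marker lists, so names are rebuilt here.

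UMIs were summed per matrix and group and scaled to CPM over all genes of that group, with 1 CPM added before log2. Ratios carry exact conditional binomial 95% intervals, shares Clopper-Pearson intervals, and a count of 0 the limit that 3 counts allow. All cover counting error only. Each strain was 1 10x sample whose ages were split by tag, with 1 matrix per strain and age, so no test, p-value or SD was computed. Counts were also simulated for 32285 genes with Poisson counting error alone, and 200 genes past the UMI minimum were changed 4-fold. Of these, 95% were recovered for age in BL/6, 89.5% for age in SM/J, 93% for strain at 12 months and 87.5% at 20 months. Of unchanged genes 0.281% to 0.318% were called. The simulation held no variation between animals, runs or cells, so these shares are not error rates of the real comparisons. edgeR 4.0.16 gave TMM factors for an alternative scaling.

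The 9 genes and all lists were chosen with earlier results of these data known. Besides the 9, the rule named family relatives and chromosome neighbours seen in at least 5% of cells of a B cell-like cluster of 50 or more cells, and the 3 genes most alike by Pearson r. Other genes named were chosen after their values were seen. Some members of the marker and family lists are not reported here.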

Additional observations from a re-analysis of the deposited data

Results flagged for a closer look

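For 3 of the 9 genes the log2 ratio of 20 over 12 months in B cell-like cells had a counting interval below 0 in BL/6 and above 0 in SM/J. All 9 ratios were above 0 in SM/J, whose values at 20 months chose the genes. The difference between the strains was not tested, since each strain and age has 1 matrix. Zcwpw1 had a log2 ratio of -1.72 in BL/6 and 3.57 in SM/J. Fgl2 stood at -1.48 in BL/6 and 3.15 in SM/J. Adgrl2 stood at -0.66 in BL/6, where it was not called and the aliquots of the 2 ages overlapped, and at 3.87 in SM/J. Without clusters 24 and 17 the SM/J ratio turned to -0.97 for Zcwpw1 and -0.42 for Adgrl2 and was 0.28 for Fgl2. In cluster 5 Zcwpw1 was lower at 20 months in both strains, at -1.85 and -1.78.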

How the results depend on the processing

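No paired analysis was possible because each strain is 1 expression sample that holds both ages, with no replicate samples, and tagged aliquots are not replicates. The cause of the changes below was not tested, except where fewer cells or genes entered by construction.

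Leaving out clusters 24 and 17, after which few cells with the 9 genes remain, moved the most. Genes called higher went from 9 to 0 for age in SM/J, from 6 to 3 for strain at 12 months and from 9 to 3 for strain at 20 months, and 1 gene was called lower at each age. Age in SM/J turned to -0.97 for Zcwpw1, -0.14 for Gnb3 and -0.42 for Adgrl2 (log2), and strain at 20 months to -0.17 for Zcwpw1 and -1.29 for Adgrl2. The thinned share of cells with 3 genes fell to 0.117% in SM/J at 12 months and to 0% at 20 months.

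A mitochondrial limit of 5% gave 0 genes lower with age in BL/6, against 2 at the limit used, while assigning B cells by transcripts gave 1 and adding 5 CPM gave 1. A minimum of 100 UMIs left 3 genes higher for strain at 12 months. In cells of cluster 5 with at most 5% mitochondrial UMIs, the genes higher than in other B cells numbered 3 in BL/6 at 12 months, where Gnb3 turned to -0.67, 3 in the SM/J matrix of 12 months and 2 in that of 20 months. With age, 1 was lower in BL/6 and 2 in SM/J, and 1 was higher by strain at 20 months. Without a UMI minimum 7 genes were higher in cluster 5 of BL/6 at 20 months and 8 in SM/J at 12 months. With 5 CPM added, 0 genes were higher by strain within cluster 5 at 12 months. With 5 UMIs of a light chain segment, 2 genes were called for Igkv14-126 over Igkv17-121 and 2 for Igkv14-126 over Igkv17-127.

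Leaving out 1 aliquot gave 2 to 3 genes lower with age in BL/6, 5 to 6 higher by strain at 12 months, 5 to 6 higher in cluster 5 of BL/6 at 12 months, 3 to 4 at 20 months, 4 to 5 in the SM/J matrix of 12 months and 4 in that of 20 months. Within cluster 5, 2 to 3 genes were lower with age in BL/6 and 1 to 2 in SM/J, 0 to 1 higher by strain at 12 months and 2 to 4 lower at 20 months. The thinned share ran from 0.0746% to 0.146% in BL/6 at 12 months, 0.359% to 0.519% in SM/J at 12 months and 24.6% to 27.8% in SM/J at 20 months.

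The share of cells with 3 genes followed depth. In BL/6 at 12 months it was 0% at 500 UMIs, with the 5% mitochondrial limit and by transcripts, 0.660% at 2000 UMIs, 2.89% unthinned and 0.699% for 2 genes. In BL/6 at 20 months it was 1.89% unthinned and 0.422% for 2 genes. In SM/J at 12 months it was 0.114% at 500 UMIs, 2.04% at 2000, 4.90% unthinned and 1.84% for 2 genes. In SM/J at 20 months it was 7.28% at 500 UMIs, 47.5% at 2000, 60.7% unthinned, 45.2% for 2 genes, 18.0% with the 5% mitochondrial limit and 18.9% by transcripts. SM/J at 20 months had the highest share in each setting except without clusters 24 and 17. This rank restates the choice of the genes, and nothing is read from it. TMM scaling moved the median of all genes from -0.17 to 0.03 for strain at 20 months and changed no call of the 9. Of 1015 single-gene values over 25 settings, 928 kept their side of the threshold, 66 lost the call and 15 gained it. The remaining 6 were of genes called at the settings used and turned direction. Changes of direction were not counted for genes not called at the settings used.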
